A study of Drosophila melanogaster with 6 samples.

Results

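The Tweedle and Osiris genes are 2 families of insect genes that are active in cells that make cuticle. Members were genes named alone by a probe set whose current symbol starts with Twdl or is Osi followed by a number. There were 24 Tweedle and 23 Osiris genes, 47 of the 11982 genes measured in this way. Each member had 1 probe set. The RefSeq annotation lists 26 Tweedle genes, and TwdlU and TwdlJ were not analysed here. Osi10b falls outside the rule because of its final letter. Its log2 signals were 5.80, 5.63 and 4.98 in control replicates 1, 2 and 3 and 5.73, 6.08 and 5.50 in Sage replicates 1, 2 and 3.

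Whole Drosophila melanogaster embryos of stages 11 to 16 were the RNA source, aged at 25 C and passed through a biosorter before extraction. In the 3 Sage samples, UAS-Sage was driven by tub-Gal4, which is active in most cells. Sage, of the basic helix-loop-helix class, is a transcription factor of the embryonic salivary gland. The 3 controls came from the tub-Gal4 strain, so both groups carried the driver, and the controls lacked UAS-Sage. The labels call the groups matched in age and treatment and leave unsaid whether replicates were collected separately. The p-values thus describe the spread among these samples, which may be technical.

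Larval cuticle is laid down by the epidermis and the tracheal tubes late in embryogenesis as layers of chitin and protein. Tweedle proteins are secreted structural proteins of that cuticle, and a dominant mutation of TwdlD makes larvae short and stout. Osiris proteins are predicted membrane proteins with a cysteine-rich region, found on vesicles and at the surface of cuticle-forming cells, and most of their genes lie side by side in the genome. That cluster lies in a region known for its lethality when present in 1 or 3 copies rather than the usual pair.

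Values were log2 signals, on which a difference of 1 is a doubling. Array medians lay between 5.55 and 5.72 and signals ranged from 3.27 to 14.68. The sage transcript rose from 7.52 ± 0.14 to 12.47 ± 0.07 (SD, n = 3; 31.05-fold, adjusted p = 1.96e-05 by limma). The controls were less alike than the Sage arrays, with control replicate 3 the least like the others. Across probe sets, which are no independent replicates, Pearson's r was 0.9866 for control replicates 1 and 2. It was 0.9688 for control replicates 2 and 3, 0.938 for control replicates 1 and 3, and 0.9895 to 0.9961 among Sage arrays. Control replicate 1 had r of 0.972, 0.962 and 0.969 with the Sage arrays, and control replicate 3 had 0.904, 0.895 and 0.895. The BioB hybridisation control, an RNA added before hybridisation, read 7.36 to 7.66 on control and 8.70 to 8.97 on Sage arrays. Handling and group therefore cannot be told apart for any gene below.

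All 24 Tweedle genes had a higher mean signal with Sage, with differences from 0.17 to 4.60 and a median of 2.57. TwdlP, TwdlN and TwdlS rose, and the other 21 did not pass an adjusted p of 0.05. Among the 23 Osiris genes none passed, 20 differences were positive and 3 negative, and the median was 0.77, from -0.29 for Osi8 to 1.97 for Osi9. Across all 18769 probe sets tested, the median difference was 0.0003, 4.25% passed as higher and 9.45% as lower by limma with Benjamini-Hochberg adjustment. The 3 Tweedle genes make 12.5% of their family. At an unadjusted p under 0.05, 13 Tweedle genes and Osi4 were higher, against 12% of all probe sets. In whole embryos, more cells of a type and more RNA per cell cannot be told apart.

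**Figure D1:**
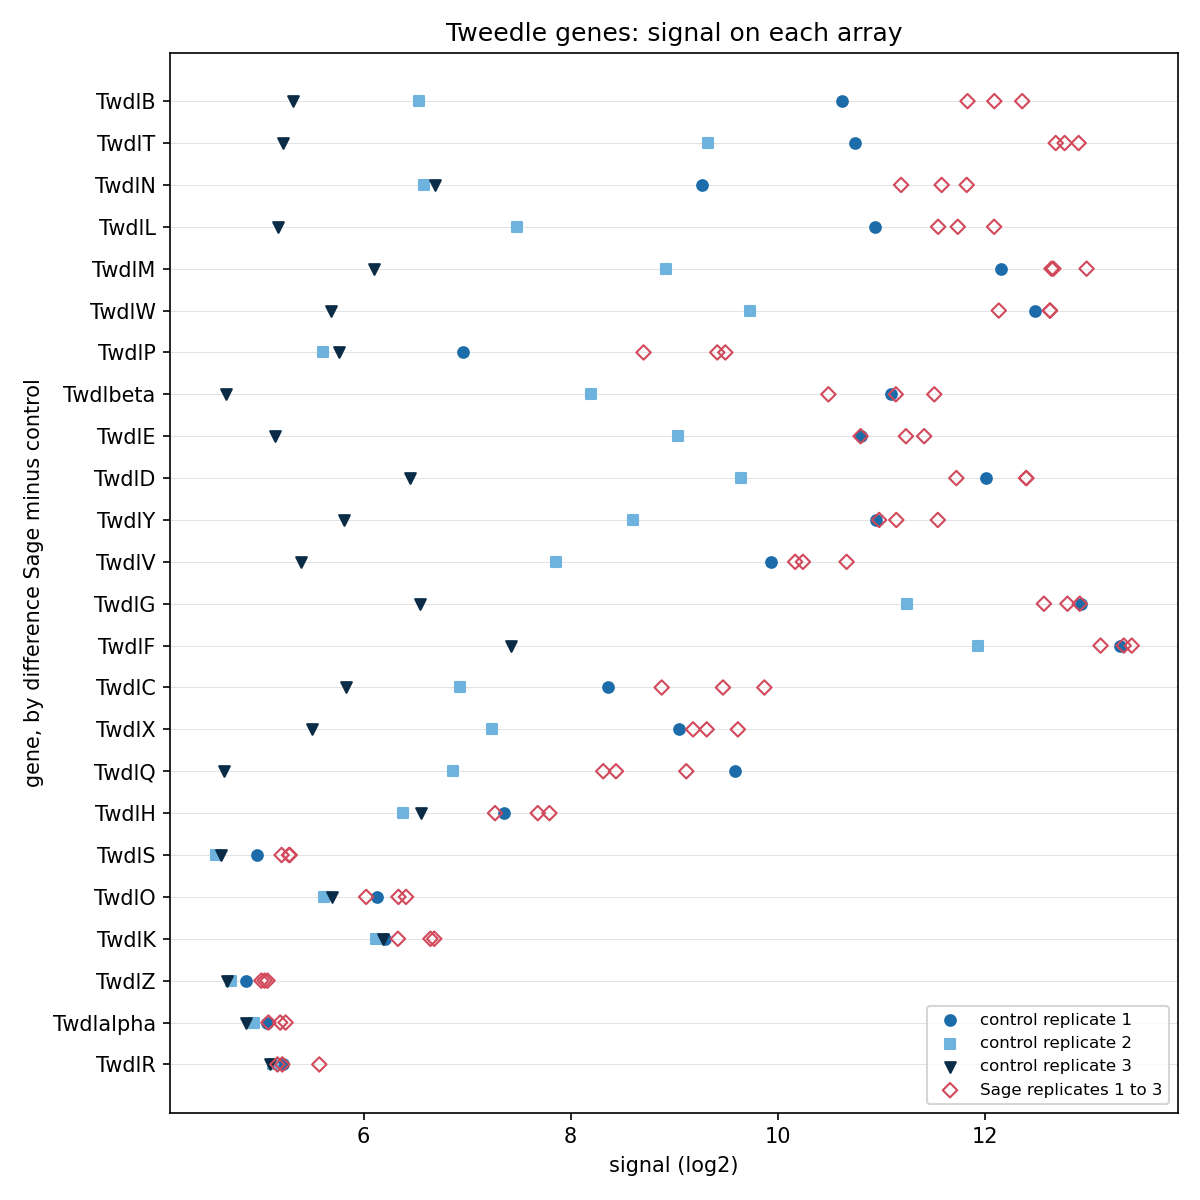
Log2 signal of the 24 Tweedle genes on each array, 1 gene a row, in order of the difference between Sage and control means. Filled symbols are the 3 control replicates and open diamonds the 3 Sage replicates. For most genes the Sage arrays sit together while the controls spread, by up to 6.80 log2 units for TwdlW.

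TwdlP read 6.96, 5.61 and 5.76 in control replicates 1, 2 and 3 and 8.70, 9.42 and 9.49 in the Sage replicates. The groups did not overlap, and the lowest Sage array lay 1.74 above the highest control. That is a difference of 3.09 (SE 0.41) and 8.53-fold (limma adjusted p = 0.0063). It also passed when any one array was left out, and limma's adjusted p then ran from 0.0040 (control replicate 1 left out) to 0.0394 (Sage replicate 3 left out).

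TwdlN read 9.27, 6.59 and 6.69 in the controls and 11.19, 11.58 and 11.82 with Sage. Control replicate 1 was the highest control and still lay 1.92 below the lowest Sage array. The difference was 4.02 (SE 0.74), or 16.2-fold (adjusted p = 0.0189 by limma). The call was lost with control replicate 2 left out (limma adjusted p = 0.0618), and with each Sage array left out in turn (0.0629, 0.0785 and 0.0886), while the difference stayed between 3.55 and 4.19 in those fits.

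TwdlS was dim on every array, below the array median, at 4.97, 4.57 and 4.62 in the controls and 5.21, 5.28 and 5.29 with Sage. It rose by 0.54 (SE 0.12), or 1.45-fold (limma adjusted p = 0.0403). Leaving out control replicate 2 or 3 or any one Sage array ended the call, with adjusted p-values by limma from 0.0676 to 0.155. Without control replicate 1 it passed (0.0103). RMA compresses differences at this level, so its size is approximate.

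Other Tweedle genes with large differences did not pass, and their controls were spread widely. TwdlB read 10.62, 6.54 and 5.32 in the controls and 11.83, 12.09 and 12.36 with Sage. Its groups did not overlap, but the difference of 4.60 (SE 1.32) had an adjusted p of 0.0789 by limma. TwdlT read 10.74, 9.32 and 5.22 in the controls and 12.91, 12.68 and 12.77 with Sage, a difference of 4.36 (SE 1.36, adjusted p = 0.0991 by limma). The signal of TwdlT in control replicate 3 lay 7.57 below the Sage mean, the lowest such value of all 18769 probe sets. TwdlT passed without control replicate 3, with a smaller difference of 2.75 (limma adjusted p = 0.0085), and without control replicate 1, with a larger one of 5.52 (0.0314).

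TwdlL read 10.94, 7.48 and 5.17 in the controls and 11.55, 11.74 and 12.09 with Sage (difference 3.93, adjusted p = 0.135 by limma). TwdlM read 12.16, 8.92 and 6.10 against 12.64, 12.66 and 12.98 (difference 3.70, adjusted p = 0.171 by limma). TwdlC read 8.36, 6.93 and 5.83 against 9.47, 8.88 and 9.87 (difference 2.37, adjusted p = 0.0687 by limma). In each of these genes every Sage array was above every control, by 0.48 to 0.61 over control replicate 1.

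The lowest Sage array lay above the highest control for 14 of 24 Tweedle and 7 of 23 Osiris genes, against 16.6% of all probe sets. The Osiris genes were Osi2, Osi4, Osi6, Osi12, Osi17, Osi20 and Osi24. An exact two-sided permutation test gives each such gene p = 0.1, and 3 arrays against 3 can give no smaller value. The margins were often small. For TwdlY the gap to control replicate 1 was 0.034 and for Twdlalpha 0.018, while for Osi17 it was 0.0092. No member lay wholly below the controls, against 18.1% of probe sets.

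In other Tweedle genes control replicate 1 read as high as the Sage arrays. TwdlF read 13.31, 11.94 and 7.42 in the controls and 13.42, 13.12 and 13.34 with Sage. TwdlG read 12.93, 11.25 and 6.55 against 12.80, 12.57 and 12.92. TwdlW read 12.49, 9.73 and 5.69 against 12.63, 12.13 and 12.63, and its control range of 6.80 was the widest of all probe sets tested. The differences of these 3 genes, 2.40, 2.52 and 3.16, missed the threshold (limma adjusted p = 0.371, 0.383 and 0.288).

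TwdlD, the gene whose mutation changes the shape of the larva, read 12.01, 9.65 and 6.44 in the controls and 12.40, 11.73 and 12.40 with Sage (difference 2.81, adjusted p = 0.252 by limma). Twdlbeta read 11.09, 8.20 and 4.67 against 11.14, 10.49 and 11.51. For both genes control replicate 1 fell within the range of the Sage arrays and the other controls below it. TwdlE, TwdlV, TwdlX and TwdlY had differences of 2.82, 2.63, 2.11 and 2.77 and the same order of controls, with replicate 1 highest and replicate 3 lowest.

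TwdlQ had the highest control replicate 1 of the Tweedle genes relative to the Sage arrays. It read 9.59, 6.86 and 4.66 in the controls and 9.12, 8.31 and 8.44 with Sage, so that control replicate 1 lay 0.97 above the Sage mean and above each Sage array, as it did by less in TwdlG. Its difference of 1.59 did not pass (adjusted p = 0.473 by limma). It was 0.40 without control replicate 3, and 2.86 without control replicate 1, where it passed (limma adjusted p = 0.0423).

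The remaining Tweedle genes had small differences or were dim. TwdlH read 7.35, 6.38 and 6.55 against 7.79, 7.27 and 7.68 (difference 0.82), and TwdlK and TwdlO had differences of 0.38 and 0.44. TwdlR, TwdlZ and Twdlalpha, with TwdlS, stayed below the median of every array, and their differences were 0.17, 0.29 and 0.22. At such signals a low level and no expression cannot be told apart.

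The Tweedle genes fall into runs of neighbours in the RefSeq annotation, counting protein-coding genes with at most 4 others between them. The longest run holds 13 genes, from TwdlM to TwdlQ, of which 12 were measured. TwdlP, TwdlN and TwdlS all lie in it, and so do TwdlB, TwdlL and TwdlM. Neighbours had unlike differences: 4.60 and 3.93 for TwdlB and TwdlL, and 0.44 and 0.38 for TwdlO and TwdlK, next in order. TwdlO read 5.62 to 6.41 and TwdlK 6.12 to 6.68 over all arrays, near the array medians, where differences are compressed. The median difference was 2.20 over the 12 genes of the run and 2.57 over the 12 Tweedle genes outside it. TwdlF and TwdlG follow each other in the order of their run and read alike in pattern. TwdlX and TwdlY come before the dim TwdlZ and Twdlalpha in theirs.

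**Figure D2:**
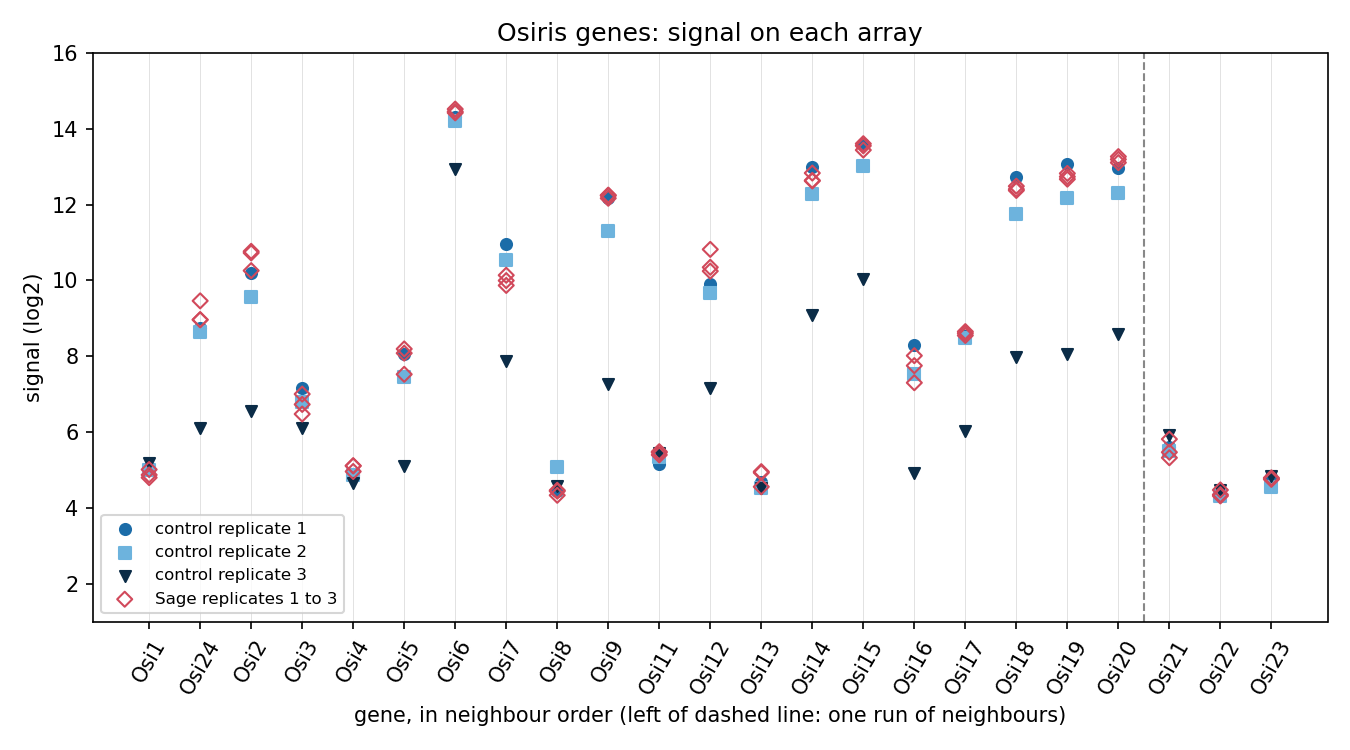
Log2 signal of the 23 Osiris genes on each array, with the 20 genes of the run in their order and the 3 others right of the dashed line. Control replicates 1 and 2 sit near the Sage arrays and control replicate 3 well below them in most genes that were not dim. In Osi7 control replicates 1 and 2 (10.96 and 10.53) lie above all Sage arrays.

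Of the Osiris genes, 20 form a single run from Osi1 to Osi20 and Osi21, Osi22 and Osi23 lie elsewhere. Osi9 read 12.18, 11.30 and 7.27 in control replicates 1, 2 and 3 and 12.24, 12.25 and 12.17 with Sage. Its difference of 1.97 (SE 1.24, adjusted p = 0.388 by limma) did not pass, and control replicate 3 lay 4.95 below the Sage mean. Osi20 read 12.96, 12.31 and 8.59 against 13.27, 13.11 and 13.19 (difference 1.90, adjusted p = 0.355 by limma). Osi2 read 10.19, 9.56 and 6.55 against 10.77, 10.26 and 10.73 (difference 1.82, adjusted p = 0.287 by limma). In both genes the lowest Sage array was above control replicate 1, by 0.15 and 0.069.

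Osi18 and Osi19 stand just before Osi20 in the run. Osi18 read 12.72, 11.76 and 7.98 in the controls and 12.49, 12.41 and 12.37 with Sage. Osi19 read 13.06, 12.17 and 8.07 against 12.74, 12.82 and 12.67. In both, control replicate 1 was above every Sage array and control replicate 3 more than 4 log2 units below the Sage mean. Osi14 and Osi15, also consecutive in the run, had the same order of controls, at 12.99, 12.27 and 9.09 and at 13.60, 13.02 and 10.04 in the controls, against Sage means of 12.70 and 13.53.

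Osi12 read 9.91, 9.68 and 7.15 in the controls and 10.35, 10.82 and 10.25 with Sage, a difference of 1.56 (adjusted p = 0.251 by limma). Osi24 read 8.76, 8.65 and 6.10 against 8.96, 9.46 and 8.96 (difference 1.29, adjusted p = 0.333 by limma). Among the 7 Osiris genes without overlap these had the widest margins over control replicate 1, at 0.34 and 0.21. Osi6 read 14.31, 14.21 and 12.95 against 14.45, 14.52 and 14.42, close to the highest signal of any array (14.68), where differences are compressed. Its difference was 0.64 (adjusted p = 0.342 by limma).

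Osi7 was the Osiris gene in which control replicate 1 stood highest above the Sage arrays. It read 10.96, 10.53 and 7.87 in control replicates 1, 2 and 3 and 10.14, 10.00 and 9.87 with Sage. Over all 6 arrays its difference was 0.21 (adjusted p = 0.91 by limma). Without control replicate 3 the sign turned, to -0.74, and the gene passed as lower (adjusted p = 0.0304 by limma), as did 10.4% of all probe sets in that fit. Osi16 (8.30, 7.54 and 4.93 against 7.75, 8.02 and 7.30) and Osi3 (7.16, 6.78 and 6.10 against 6.48, 7.00 and 6.73) also turned without control replicate 3, to -0.23 and -0.24, without a call (limma adjusted p = 0.704 and 0.518). Osi5 and Osi17, at 1.07 and 0.92, were not called either.

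Dim members were interspersed in the Osiris run. Osi1, Osi4, Osi8, Osi11 and Osi13 stayed below the median of every array, while Osi7 and Osi9, on either side of Osi8, did not. Osi8 had the lowest difference of the family, with 4.45, 5.08 and 4.57 in the controls and 4.46, 4.44 and 4.33 with Sage, and control replicate 2 stood above the rest. Osi1 had a difference of -0.19. Outside the run, Osi22 and Osi23 were also dim throughout. Osi23 is needed for the pores of olfactory bristles, a later structure. Osi21, which affects photoreceptor survival in the adult eye, read 5.61, 5.50 and 5.93 against 5.32, 5.81 and 5.47 and did not pass (adjusted p = 0.676 by limma). The widest control range of these 3 genes was 0.43, for Osi21.

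**Figure D3:**
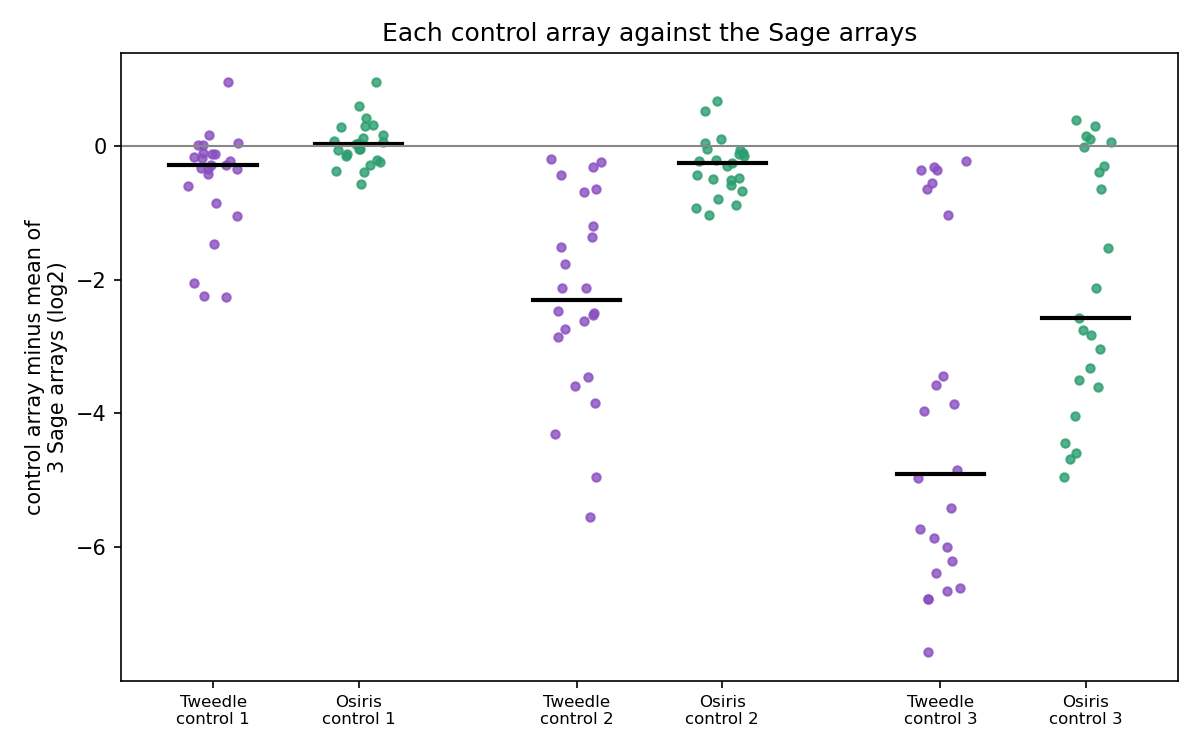
Difference between each control array and the mean of the 3 Sage arrays (log2), 1 point per gene, with the family median as a bar. Control replicate 1 lies near 0 in both families, control replicate 2 lies near 0 for Osiris genes and at a median of -2.30 for Tweedle genes, and control replicate 3 lies below for most genes of both.

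Relative to the Sage mean, control replicate 1 had a median of -0.28 over the Tweedle genes and 0.038 over the Osiris genes. The same median over all probe sets was -0.039. In control replicate 2 the medians were -2.30 for Tweedle and -0.25 for Osiris genes, and in control replicate 3 they were -4.90 and -2.58. Over all probe sets control replicates 2 and 3 had medians of -0.019 and 0.072. Control replicate 1 lay more than 1 log2 unit below Sage for 5 Tweedle genes and no Osiris gene, against 2.20% of all probe sets. Control replicate 2 did so for 18 Tweedle genes and for 1 Osiris gene, Osi2, against 4.07%. Control replicate 3 did so for 18 Tweedle and 14 Osiris genes, against 9.87%. Each of these comparisons rests on 1 control array and has no replicate check.

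The order of the controls was shared by most members. Control replicate 1 was highest and control replicate 3 lowest in 18 Tweedle and 16 Osiris genes, 72.3% of members, and in 17.4% of all probe sets. The controls spanned more than 1 log2 unit in 17 Tweedle and 15 Osiris genes (68.1% of members, against 12.5% of all probe sets), and in each of these control replicate 1 exceeded control replicate 3 by more than 1. The Sage arrays spanned more than 1 only in Twdlbeta among members. The median SD among controls was 2.37 for Tweedle and 1.50 for Osiris genes, against 0.27 and 0.087 among Sage arrays.

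**Figure D4:**
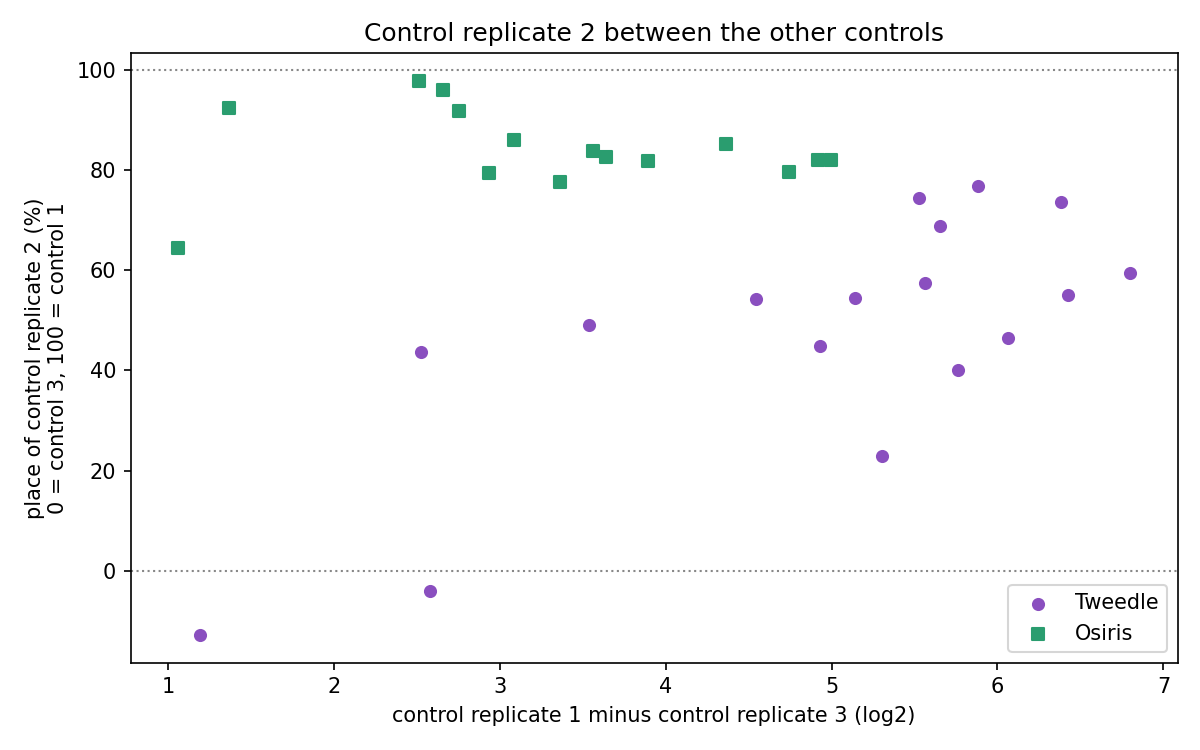
Place of control replicate 2 between control replicate 3 (0%) and control replicate 1 (100%) on the log2 scale, for the 32 members in which control replicate 1 exceeded control replicate 3 by over 1 log2 unit. The 15 Osiris genes (squares) lie between 64.5% and 97.8%, and the 17 Tweedle genes (circles) between -12.8% and 76.7%.

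The families differed in where control replicate 2 fell. On the log2 scale from control replicate 3 (0%) to control replicate 1 (100%), its median place was 82.6% over 15 Osiris genes and 54.3% over 17 Tweedle genes, against 69.1% over the 1478 probe sets with such a gap. All 15 Osiris genes but Osi3 (64.5%) were at 77.5% or above. Among Tweedle genes TwdlP (-12.8%), TwdlN (-4.13%) and TwdlB (22.9%) were lowest, and TwdlF (76.7%), TwdlT (74.4%) and TwdlG (73.7%) highest. TwdlP, TwdlN, TwdlB and TwdlC, in which control replicate 2 was at 43.7% or lower, read over 1 log2 unit below the Sage mean in control replicate 1 too, and TwdlL (40.1%) had -0.855 there. TwdlT shared that gap (-2.05) with control replicate 2 near control replicate 1. The 0% end was not alike in the families. Among members above the array median on at least 1 array, control replicate 3 had a median of 5.73 for Tweedle and 7.21 for Osiris genes. The median of that array was 5.55, and differences are compressed near it. TwdlP read 5.61 and 5.76 in control replicates 2 and 3, so its place rests on low signals. Genes of a family are not independent replicates and all values share the same arrays, so no test was made between families.

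The number of calls changed with the control arrays. Without control replicate 1, 17 Tweedle genes and no Osiris gene passed as higher, against 6.8% of all probe sets, and the 17 included TwdlP, TwdlN and TwdlS. TwdlE, TwdlF, TwdlG, TwdlK, TwdlR, TwdlZ and Twdlalpha were the 7 Tweedle genes without a call in that fit. The median differences were then 3.67 for Tweedle and 1.35 for Osiris genes. Without control replicate 3, TwdlN, TwdlP and TwdlT passed as higher (5.58% of all probe sets), and the medians were 1.29 and 0.18. Without control replicate 2, TwdlP passed alone among members (2.48% of all probe sets).

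Other gene lists of cuticle formation, chosen with earlier results of these data known, were read from the same fit. In that fit 4.25% of all probe sets passed as higher and 9.45% as lower. Of 81 genes of the Cpr, Lcp, Ccp, Edg, Pcp and Acp65 groups, 18 were higher and none lower, with a median difference of 0.73. These genes encode other structural proteins of cuticle. Their summed linear signal was 41850, 10980 and 3693 in control replicates 1, 2 and 3 and 50565 to 68808 with Sage. The order of the controls was thus not particular to the Tweedle and Osiris genes. The largest rises among the 18 were those of Cpr49Ae, from 5.49 ± 1.58 to 9.61 ± 0.51 (SD, n = 3; adjusted p = 0.0214 by limma), and Lcp65Af, from 4.81 ± 1.14 to 8.85 ± 0.96 (SD, n = 3; adjusted p = 0.016 by limma). Of 23 chitin and apical matrix genes none rose and dpy, which encodes a giant apical matrix protein, fell (difference -1.75, adjusted p = 0.00632 by limma), with a list median of 0.72. Of 9 cross-linking and tanning genes, Ddc (dopa decarboxylase), e (ebony) and Duox (dual oxidase) rose by 1.92, 1.16 and 0.83. The others in that list did not pass, and their lowest difference was -0.78, for t (limma adjusted p = 0.218).

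None of 10 epidermal regulators passed by limma, among them ovo, which directs denticle formation (difference -0.52, adjusted p = 0.31), and Blimp-1 (-0.94, adjusted p = 0.257). Endosomes are a compartment where Osiris proteins have been found. Of 6 genes of endosomal traffic, Hrs and lt fell, by 0.63 and 0.51, against 9.45% of all probe sets. The other 4 did not pass.

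Marker lists of tissues and of dividing cells moved with the arrays as well. The summed linear signal of 11 genes of dividing cells and maternal RNA was 15239 to 23569 in the controls and 3760 to 4418 with Sage. Of these, 6 fell, with swa and plu lowest at -4.48 and -4.37, and none rose. Across all probe sets 4.25% passed as higher and 9.45% as lower. The DNA replication genes Mcm5, Mcm2 and PCNA in that list did not pass, with differences of -0.79, -0.69 and -0.57. By control array, in replicate order, this sum was 15950, 15239 and 23569. Its peak fell on replicate 3, where most Tweedle and Osiris genes were lowest. The smallest control sum was that of replicate 2, whose Tweedle median relative to the Sage mean was -2.30, against -0.28 for replicate 1. These sums are linear, so the brightest genes weigh most. Mcm5 (8.45, 8.73 and 10.20), Mcm2 (8.70, 9.01 and 10.47) and osk (5.78, 5.95 and 8.14) rose from control replicate 1 to 2 to 3. In the other genes of that list control replicate 2 was the lowest control. The sum over 5 tracheal genes was 4237 to 13275 in the controls and 17308 to 18562 with Sage, and uif rose by 0.75. The brightest tracheal genes, serp, verm and Gasp, are also in the chitin list above. The tracheal gene btl had a difference of -0.26 and did not pass (limma adjusted p = 0.661). The sum over 3 muscle genes was 972 to 6873 against 5261 to 8071, with no gene passing. The epidermal marker list shares ovo, SoxN and grh with the regulators above, and Ddc and ple with the tanning list. The sum over 7 epidermal genes was 3569 to 5850 against 3484 to 3939, with Ddc higher. For 5 salivary gland genes it was 2357 to 3179 against 6976 to 8403, with PH4alphaSG1, PH4alphaSG2 and Papss higher. For 4 neuronal genes it was 1701 to 2371 against 1353 to 1554, with none passing. For 5 hemocyte genes it was 1856 to 2537 against 4905 to 4960, with Pxn and PPO1 higher. The other hemocyte genes did not pass, and the median difference of that list was 0.17. Among the controls, the epidermal and neuronal sums also peaked on replicate 3. The tracheal, muscle, salivary gland and hemocyte sums were smallest on that array. The part of these marker lists in the Tweedle and Osiris values was not tested.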

How the data were processed

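The authors deposited log2 signals per probe set for 6 Affymetrix 3' arrays. Per the submitters' processing notes, RMA and Partek were used, with no version. The genome build and the authors' test are not given in the sources used here. RMA equalises arrays, so a change in total RNA per embryo cannot be seen. The table held 18952 probe sets, of which 18769 were tested, without a filter, after removal of 183 for control RNAs. In the platform annotation 13647 probe sets had 1 gene, 402 had several and 4720 had none. Symbols were updated through Entrez identifiers to RefSeq Release 6, used for names and neighbour order alone. Genes with more than 1 probe set were represented by the one of highest mean.

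The test was limma 3.58.1 (lmFit and eBayes, R 4.3.3), Sage minus control, two-sided, without covariates, with Benjamini-Hochberg adjustment over all probe sets at 0.05, and the procedure was tested on simulated data. With 3 arrays a group, precision is limited by their number. The members and lists were chosen with earlier results of these data known. Every member may be named. Of each other list, up to 2 rises and 2 falls past the threshold are named, or the 2 largest differences where none passed. The third rise of a list, and further genes that did not pass, were named after their values were seen. Exact permutation tests used scipy 1.17.1. Figures were drawn with matplotlib 3.10.9 in Python 3.11.15. Alternatives left out each array, or changed the block, filter, scaling, prior, weights or features tested.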

Additional observations from a re-analysis of the deposited data

Results flagged for a closer look

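The BioB hybridisation control, an RNA outside the gene comparison, had a mean log2 signal over 3 probe sets that was 1.36 higher on the Sage than on the control arrays, and its groups did not overlap. Outliers within a group were not looked for, since groups of 3 are too small.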

How the results depend on the processing

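The count of Tweedle genes higher with Sage was 3, and 1 to 17 with 1 array left out (17 without control replicate 1, and 1 without control replicate 2 or Sage replicate 2 or 3, and 2, TwdlK and TwdlP, without Sage replicate 1). Of all probe sets, 2.38%, 1.97% and 1.42% were higher without Sage replicates 1, 2 and 3 in turn. No Osiris gene was lower in the reported test, and 0 to 1 were with 1 array left out (Osi7, without control replicate 3). With array weights, 23 Tweedle and 5 Osiris genes were higher and 2 Osiris genes lower, against 25.9% of all probe sets higher and 26.2% lower. The weights did not converge and gave control replicate 2 a weight of 32.0 and the others 0.128 to 2.79. The Tweedle median ran from 1.29 to 3.67 and the Osiris median from 0.18 to 1.35 over all alternatives, both at the low end without control replicate 3. The dim filter tested 9385 probe sets, of which 7.91% were higher, and 20 Tweedle genes. TwdlS was not among them. With that filter 4 Tweedle genes were higher, with TwdlB and TwdlC gained (limma adjusted p = 0.0476 and 0.0418). TwdlP passed under every alternative run. TwdlS did not pass with median centring or quantile normalization, and neither it nor TwdlN with the replicate block.

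Titles give both groups replicate numbers 1 to 3. Same-numbered arrays did not deviate together (correlations of -0.13, -0.068 and -0.25). With 3 arrays a group, whose deviations depend on one another, this cannot exclude a pairing. The labels do not say whether the numbers pair the samples, so the reported test did not use them. With the replicate block 1 Tweedle gene was higher, against 1.82% of all probe sets.

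Of 599 repeats for single members, 526 kept direction and side of the threshold, 45 gained and 13 lost a call, and 15 changed sign, in 5 Osiris genes. Without control replicate 3 these were Osi7 (-0.74), Osi16 (-0.23) and Osi3 (-0.24). With array weights they were Osi7 (-0.59), Osi16 (-0.082) and Osi3 (-0.0699). With median centring they were Osi22 (-0.0901), Osi23 (-0.054) and Osi3 (-0.037), and with quantile normalization Osi3 (-0.047). Osi22 turned to -0.021 and -0.028 without control replicate 1 or 2 and -0.045 without Sage replicate 2, Osi23 to -0.051 without control replicate 2, and Osi3 to -0.078 without Sage replicate 2. With 1 array left out the differences ran from -0.74 to 0.80 for Osi7, -0.23 to 1.45 for Osi16, -0.24 to 0.29 for Osi3, -0.045 to 0.0535 for Osi22 and -0.051 to 0.0897 for Osi23. The cause was not tested. Each member had 1 probe set, so other probe sets of a gene gave no value.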
